A study of Mus musculus with 6 samples.

Results

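The cells described here were neurons of the postnatal mouse hypothalamus that carried Tac2, the gene for neurokinin B, and little Pomc, the gene for proopiomelanocortin. They came from 2 libraries of a series of 6, made from mice of strain C57BL/6 with a red fluorescent reporter (TdDsRed) under the Pomc promoter, at 4 embryonic ages and at P5 and P12. Hypothalami of several animals were pooled per age, the cells were sorted for red fluorescence, and 1 library of 3′ transcript tags was sequenced per age; all cells in the files held at least 1 Pomc transcript. No group was treated or mutated, and the labels name no sex. The sample label and title put the younger postnatal library at P5, while protocol text written for the series says P6; P5 is used throughout. A unique molecular identifier (UMI) counts 1 captured transcript, and a level is given as UMIs per 10000 UMIs of the same cell or, for a group, of all its cells summed. A Tac2 neuron was a P5 or P12 cell with a Tac2 level of at least 5, a Pomc level below 10 and at least 1 UMI of at least 3 of 6 neuronal genes (Elavl3, Mapt, Snap25, Stmn2, Syt1 and Tubb3). The rule chose 732 of the 13953 cells of the series: 514 of 3909 at P5 and 218 of 3533 at P12. Tac2, Pomc and the 6 neuronal genes chose the cells, so their values are given as a description, and every gene measured in the same cells is described and not tested. With 1 library per age there was no replicate, and the intervals below are exact 95% intervals that cover counting error only.

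In the adult arcuate nucleus, neurons that make kisspeptin, neurokinin B and dynorphin are called KNDy neurons. Neurokinin B, acting through its receptor Tacr3, excites these cells and their neighbours, dynorphin dampens them, and kisspeptin is the signal that drives gonadotropin-releasing hormone neurons in pulses. The cells read sex steroids through receptors that include estrogen receptor alpha and progesterone receptor, and prolactin through Prlr.

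The stretches around the transcript starts of the genes for neurokinin B and kisspeptin are shown because levels of both transcripts differed between female and male cells below. Each runs 5′ to 3′ on the plus strand of GRCm38 from 250 bases before to 50 bases after the RefSeq start, Tac2 at chr10:127724228-127724527 and Kiss1 at chr1:133326962-133327261. The RefSeq start of Kiss1 lies inside the gene span given below. Capitals mark GGTCA or its reverse TGACC, the core bound by many nuclear receptors.

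Tac2: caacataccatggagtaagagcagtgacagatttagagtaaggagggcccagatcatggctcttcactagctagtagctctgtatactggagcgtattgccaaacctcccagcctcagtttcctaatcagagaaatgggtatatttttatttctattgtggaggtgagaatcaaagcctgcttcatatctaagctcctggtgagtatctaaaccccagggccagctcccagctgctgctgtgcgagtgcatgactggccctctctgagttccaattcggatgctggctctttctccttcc
Kiss1: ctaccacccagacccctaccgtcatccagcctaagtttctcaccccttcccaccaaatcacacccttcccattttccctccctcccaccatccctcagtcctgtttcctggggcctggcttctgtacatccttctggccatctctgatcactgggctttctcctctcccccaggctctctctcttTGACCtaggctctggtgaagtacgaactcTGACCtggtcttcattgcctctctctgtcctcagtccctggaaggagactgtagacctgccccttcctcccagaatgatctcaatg

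The Kiss1 stretch held the core at 2 places, both on the reverse strand, and the Tac2 stretch at none. The core was also in stretches of Nr5a2 and Esr1. It was present in 40.5% of the 32851 mouse promoter stretches of this length and in 3 of the 14 stretches listed for 9 of the 11 KNDy genes described below. The palindromic estrogen response element, made of a core and its reverse 3 bases apart, was in 0.0700% of all stretches. The NR5A letters CAAGGTCA, which contain the core, were in 1.56%, and neither was in any of the 14. The TATA letters TATAAA were in 13.6% of all stretches and in 3 of the 14. All were searched on both strands, and a match is a match of letters only.

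Tac2 neurons made up 14.9% of neurons at P5 (interval 13.7 to 16.1) and 16.5% at P12 (14.6 to 18.6), counted after cells rich in non-neuronal transcripts, described below, were set aside from the other neurons alone. With no cells set aside the shares were 14.3% (13.2 to 15.54) and 9.78% (8.58 to 11.1), so the order of the ages turned with this choice. The Tac2 level per cell ran from 5.05 through a median of 25.2 to 217 at P5, and from 5.07 through a median of 78.2 to 269 at P12. The middle of the P5 cells was broad, with quartiles of 11.8 and 71.0, while the P12 quartiles were 50.01 and 106. Cells just above the limit (Tac2 of 5 to 7) numbered 56 at P5 and 8 at P12, and low-Pomc neurons just below it (3 to 5) numbered 85 and 8. The limit thus ran through a continuous range of cells at P5 and through a sparse one at P12. A further 26 neurons at P5 and 11 at P12 had the Tac2 level but too much Pomc. Of the Tac2 neurons, 59.3% at P5 and 50% at P12 held exactly 1 Pomc UMI. Among microglia, the resident immune cells, the shares were 70.2% and 58.8%. Among other neurons with a Pomc level below 10 they were 34.6% and 26.5%. These shares depend on depth, with median UMIs per cell of 10853 and 10585 in microglia and 16340 and 29048 in those neurons. Where the Pomc UMIs of microglia came from was not tested. All 6 neuronal genes were detected in 88.7% and 89.9% of the Tac2 neurons.

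Comparisons were made within each library with the other neurons (2938 at P5 and 1101 at P12), split at a Pomc level of 10 into Pomc-high neurons (1556 and 727) and other Pomc-low neurons (1382 and 374). Cells with at least as many UMIs of non-neuronal marker genes as of the 6 neuronal genes were left out of these comparison groups: 130 at P5, of which 117 had at least 4 of 8 microglia markers, and 909 at P12, of which 775 did. The Tac2 neurons were not screened in this way, and 5 of them at P5 and 18 at P12 would have been left out. The median UMIs per cell were 14727.5 and 19376 in Tac2 neurons against 22009.5 and 32049 in the other neurons. The 8 microglia markers summed to a level of 1.62 in P5 Tac2 neurons and 10.2 at P12, against 0.767 and 1.33 in the other neurons and 203 and 244 in microglia. None of the 8 was at 0 in the Tac2 neurons, and 11 Tac2 neurons at P5 and 33 at P12 held at least 4 of them. Astrocyte, oligodendrocyte lineage, endothelial and vascular leptomeningeal markers summed to at most 1.49 in Tac2 neurons at either age. Of the vascular leptomeningeal genes, 6 of 6 were at 0 at P5 and 4 of 6 at P12. Values without the Tac2 neurons that held at least 4 microglia markers are given for the comparison of ages, and the part of microglial RNA in the other results was not tested. Among 7442 postnatal cells, P5 and P12 shared 1 cell barcode, in no Tac2 neuron.

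The name KNDy was set beside an 11-gene list, 1 of which (Tac2) the rule used. Lhx5, Nr5a2, Sox14, Esr1 and Prlr came with the label, and the list was chosen with earlier results of these data known. The values therefore describe the cells and do not test the name. Of the 10 genes that the rule did not use, 9 had a level at least 2-fold above that of the other neurons at both ages, and the exception was Pgr, the progesterone receptor. The median log2 ratio was 2.16 over the 9 of these genes that reached a level of 0.2 at P5 and 2.29 over all 10 at P12. Among all genes at a level of 0.2 or more on the higher side, 149 of 7015 (2.12%) were 2-fold higher at P5 and 288 of 7559 (3.81%) at P12, with a median log2 ratio of 0.04 at each age. Lhx5, a LIM homeodomain factor, stood at 1.75 (1.65 to 1.84) in Tac2 neurons at P5, against 0.0658 in Pomc-high neurons, 0.486 in other Pomc-low neurons and 0.0764 in microglia. At P12 it stood at 1.21 (1.10 to 1.32) against 0.0276, 0.0681 and 0.0188. Sox14, a repressor of the SoxB group, stood at 2.12 (2.02 to 2.23) against 0.121, 0.764 and 0.120 at P5, and at 1.66 (1.54 to 1.79) against 0.0420, 0.0786 and 0.0129 at P12. At P5 the Pomc-high neurons thus held both factors at about the microglial level and the other Pomc-low neurons held more, while at P12 both groups were far below the Tac2 neurons. Nr5a2, the orphan nuclear receptor LRH-1, differed less: 0.829 (0.767 to 0.895) against 0.306 in all other neurons at P5, and 1.17 (1.06 to 1.28) against 0.243 at P12.

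The genes for the 3 peptides were all present. Tac2, which the rule used, stood at 46.5 at P5 and 80.3 at P12. Kiss1 stood at 0.408 (0.365 to 0.455) in P5 Tac2 neurons and 0.414 (0.354 to 0.482) at P12, against 0.0134 and 0.000902 in the other neurons, the last value resting on 3 UMIs. Its ratio to the other neurons was 30.5 (24.1 to 38.9) at P5 and 459 (154 to 2249) at P12. Kiss1 lies on chromosome 1 at 133321875 to 133329901 of GRCm38, inside the span of the read-through gene Gm28040 (133309827 to 133329901) on the same strand. No UMI was counted on Gm28040 in the Tac2 neurons of either age, and how reads shared by the pair were assigned was not tested. Pdyn, the dynorphin precursor, stood at 0.956 (0.890 to 1.03) and 1.44 (1.33 to 1.57) against 0.329 and 0.482. Kiss1 was detected in 192 of 514 cells at P5 and 97 of 218 at P12, with never more than 5 UMIs in a cell. Kiss1 and Pdyn were found together with Tac2 in 150 cells (29.2%) at P5 and 87 (39.9%) at P12. Thinned to 5000 UMIs per cell, the share with Kiss1 was 16.4% (13.3 to 19.9) at P5, where 3 shallower cells were left out, and 18.8% (13.8 to 24.8) at P12, where 11 were; in microglia it was 0.257% and 0.112%.

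Among receptors, Esr1, estrogen receptor alpha, stood at 1.29 (1.21 to 1.37) at P5 and 2.37 (2.22 to 2.53) at P12, against 0.289 and 0.473 in the other neurons. The ratios were 4.46 (4.13 to 4.81) and 5.02 (4.62 to 5.44). Prlr, the prolactin receptor, stood at 0.939 and 2.52 against 0.450 and 0.899. Tacr3, the neurokinin B receptor, stood at 0.500 (0.452 to 0.551) and 1.16 (1.06 to 1.27) against 0.0869 and 0.0739. For Pgr the interval of the ratio included 1 at both ages, with a ratio of 1.21 (0.953 to 1.53) at P5 and 1.13 (0.892 to 1.41) at P12. Kiss1r, the kisspeptin receptor, was low in Tac2 neurons, at 0.0264 and 0.0296, as was Esr2, the other estrogen receptor, at 0.00126 and 0.00493.

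**Figure D1:**
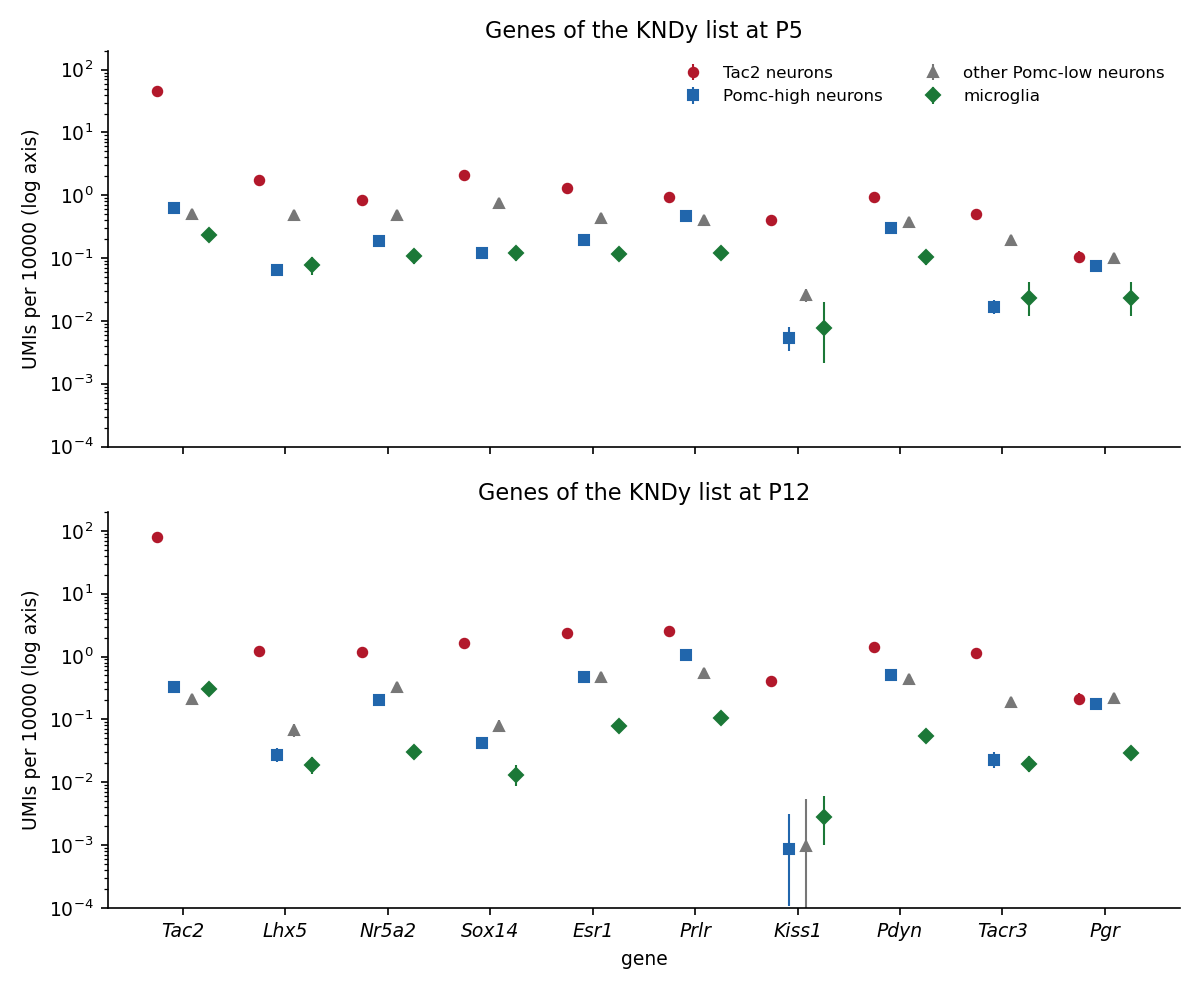
Levels of 10 KNDy genes at P5 (top) and P12 (bottom), in UMIs per 10000 on a log axis, for Tac2 neurons, Pomc-high neurons, other Pomc-low neurons and microglia; bars are exact 95% Poisson intervals of the summed counts. Pgr aside, Tac2 neurons have the highest level of each gene shown at both ages, and Pgr lies close together in the 3 groups of neurons; Lhx5 and Sox14 drop in the other Pomc-low neurons from 0.486 and 0.764 at P5 to 0.0681 and 0.0786 at P12.

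Of the 5 list genes that the label names beside Tac2 (Lhx5, Nr5a2, Sox14, Esr1 and Prlr), at least 3 were detected in 89.9% of Tac2 neurons at P5 and 91.7% at P12, against 26.1% and 26.5% of the other neurons. With every cell thinned to 5000 UMIs the shares were 42.9% and 55.6% against 9.40% and 2.01%. In microglia thinned alike they were 0.771% and 0.112%. The thinned share was 18.5% in the other Pomc-low neurons and 1.30% in the Pomc-high neurons at P5, and 3.92% and 1.02% at P12.

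Across all genes with a level of at least 1 on the higher side, 43 of 2060 (2.09%) were at least 2-fold higher in Tac2 neurons than in other neurons at P5, and 34 (1.65%) were at least 2-fold lower. At P12, 75 of 2267 (3.31%) were higher and 66 (2.91%) lower, with Tac2 and Pomc, which the rule used, among them. Of these, 33 were higher and 28 lower at both ages, and none changed direction. The 33 were 76.7% of those higher at P5 and 44% of those higher at P12, and the 28 were 82.4% and 42.4% of those lower. At P12 the higher genes included the microglia markers C1qa, C1qb and C1qc. These were among the genes by which cells were set aside from the other neurons but not from the Tac2 neurons. Their ratio thus depends on that choice and is not read as a trait of the Tac2 neurons. The genes of largest difference at both ages, Tac2, Pomc and the neuronal genes of the rule aside, are named below.

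The transcription factors Lhx5 and Sox14 led the higher side, with ratios of 7.54 (7.01 to 8.11) and 5.67 (5.33 to 6.03) at P5 and of 29.99 (24.7 to 36.6) and 31.1 (26.3 to 36.8) at P12. Gm27199, an antisense gene, followed Lhx5 closely, with ratios of 6.83 (6.33 to 7.37) and 31.1 (25.4 to 38.5). The 2 genes lie head to head on chromosome 5 of GRCm38, Lhx5 at 120431699 to 120441223 on the plus strand and Gm27199 at 120419659 to 120431767 on the minus strand, so they overlap over the start of Lhx5. Whether counting kept the strands apart was not tested. Esr1 was also among the 10 genes of largest difference. The rest were Sphkap, an anchoring protein for protein kinase A (1.67 against 0.318 at P5, 2.53 against 0.210 at P12), Cxxc5, a CXXC zinc finger protein (1.44 against 0.368, 1.60 against 0.310, with 1.13 and 1.30 in microglia), and Hs3st4, a heparan sulfate sulfotransferase (1.18 against 0.305, 1.11 against 0.160). They also included Tmem35a, a chaperone of nicotinic receptors (2.17 against 0.615, 3.71 against 0.531), Trpc5, a cation channel (1.11 against 0.316, 1.28 against 0.350), and Mrps11, a mitochondrial ribosomal protein (3.11 against 0.952, 3.94 against 0.877).

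The 10 genes of the lower side included factors and a peptide of other arcuate neurons. Isl1, a LIM homeodomain factor of Pomc and AgRP neurons, was 22.8-fold lower (18.4 to 28.6) at P5 and 37.3-fold lower (24.4 to 60.4) at P12. It was below the microglial level in the Tac2 neurons, at 0.106 against 0.455 in microglia at P5 and 0.0518 against 0.161 at P12. Six3, a homeobox factor, was 9.17-fold and 18.8-fold lower, and Npy, the orexigenic neuropeptide Y, 34.9-fold and 14.1-fold lower. Thinned to 5000 UMIs, 1.37% of Tac2 neurons held Npy at P5, against 1.89% of Pomc-high and 4.34% of other Pomc-low neurons. At P12 the shares were 5.80%, 8.56% and 18.8%. Dlk1, a Notch family ligand, was 8.67-fold and 16.2-fold lower, and Cpne4, a copine, 8.996-fold and 21.3-fold lower. Olfm1, Calb1 (calbindin), Enc1 and Rasgrf2 were also among the 10, at 3.23-fold to 5.62-fold lower at P5 and 2.89-fold to 4.51-fold lower at P12.

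**Figure D2:**
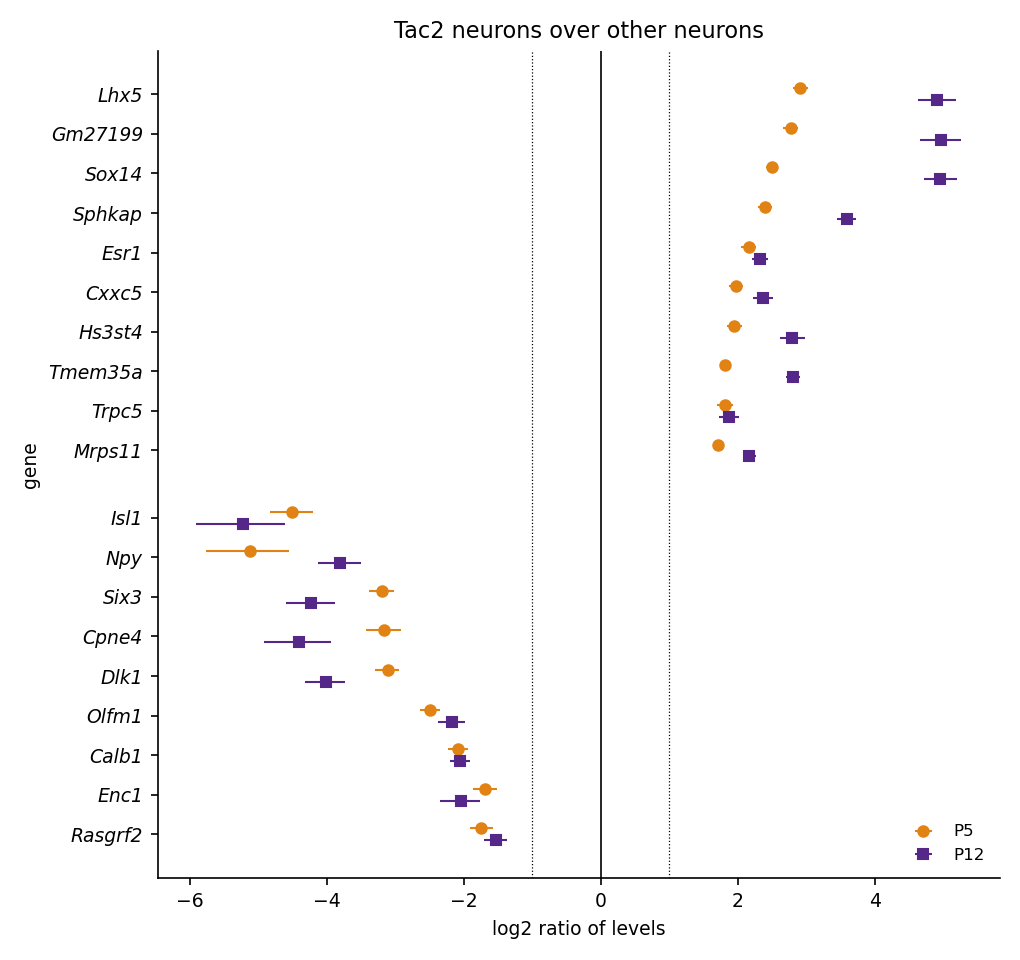
Log2 ratio of the level in Tac2 neurons over that in other neurons of the same library at P5 and P12 for the named genes highest above (top) and below (bottom) the other neurons; bars are exact 95% intervals of counting error, and dotted lines mark 2-fold. Lhx5, Gm27199 and Sox14 lie between 5.67-fold and 7.54-fold at P5 and between 29.99-fold and 31.1-fold at P12, and no gene shown changes side.

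The lists of gene groups are read at the limit of 0.2, at which 190 of all genes (2.71%) were 2-fold lower at P5 and 235 (3.11%) at P12. Of 36 transcription factors of arcuate neurons, 16 reached the limit at P5, where Lhx5, Sox14, Nr5a2, Bsx and Nhlh2 were 2-fold higher and Isl1, Six3, Six6, Nkx2-4, Prdm12 and Nr4a2 2-fold lower, with a median log2 ratio of 0.07. At P12, 18 did, with 6 higher, Insm1 added, and 7 lower, Sox2 and Otp in place of Nr4a2, and a median of -0.11. Nhlh2, a helix-loop-helix factor needed for fertility in mice, stood at 2.26 against 0.875 at P5 and 1.79 against 0.675 at P12. Bsx, a homeobox factor of arcuate neurons, stood at 0.268 against 0.0663 and at 0.311 against 0.0547. Prdm12, a factor of Pomc neurons, was close to absent, at 0.0176 against 0.496 and at 0.00739 against 0.524. Nkx2-1, Tbx3 and Sox1 differed by less than 2-fold at both ages; Nkx2-1, which marks the ventral hypothalamus, stood at 2.41 against 1.54 and 1.74 against 1.38.

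Of 28 peptide and granin genes outside the KNDy set, Pomc left out because the rule used it, 8 reached the limit at P5, none 2-fold higher and 4 lower (Cartpt, Agrp, Npy and Sst), with a median log2 ratio of -1.55. At P12, 10 did, of which Chgb, a granin of the secretory granule, was higher and 5 were lower, Adcyap1 added, with a median of -1.54. Agrp stood at 0.0138 and 0.104 in Tac2 neurons against 0.208 and 1.12 in the other neurons, and Sst, somatostatin, at 0.00881 and 0.0271 against 0.642 and 1.68. In microglia these stood at 0.0353 and 0.304 for Agrp and 0.607 and 0.111 for Sst, above the Tac2 neurons in each case. Agrp, Npy, Otp and Calcr summed at P12 to 0.402 in Tac2 neurons, 0.704 in Pomc-high neurons and 14.5 in other Pomc-low neurons. At P5 the sums were 0.142, 0.351 and 3.92. Sst and Otp summed to 0.0493, 0.120 and 6.11 at P12 and to 0.0151, 0.222 and 1.65 at P5. The other Pomc-low neurons thus held most of these transcripts. Tac1, the gene for substance P, was 10.9-fold lower (8.07 to 15.1) at P5 and 11.1-fold lower (8.02 to 15.8) at P12. Of 7 peptide processing genes, Pcsk1, a prohormone convertase, stood at 0.726 against 0.350 and at 1.84 against 0.705, while its relative Pcsk2 stood at 0.182 against 0.660 and at 0.286 against 1.13.

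Slc17a6, the vesicular glutamate transporter VGLUT2, stood at 1.24 against 1.06 in other neurons and 0.151 in microglia at P5, and at 2.61 against 1.27 and 0.173 at P12. Slc32a1, the vesicular GABA transporter, stood at 0.0214 and 0.0419, below its microglial level of 0.0392 and 0.0648. Gad1, which makes GABA, stood at 0.507 against 0.634 in other neurons at P5 and at 0.574 against 0.983 at P12, with 0.155 and 0.115 in microglia. Of 23 hormone receptors, 10 reached the limit at P5 and 13 at P12. Esr1 and Prlr were among those 2-fold higher at both ages, and Igf1r among those at P12, while Nr3c1, Calcr, Npy1r and Npy2r were 2-fold lower at both. The median log2 ratios were -0.16 and -0.02. Npy1r stood at 0.0856 against 0.466 at P5 and 0.261 against 0.793 at P12, and Nr3c1, the glucocorticoid receptor, at 0.0755 against 0.250 and 0.333 against 0.854. None of 7 steroid coregulators was called, 6 of which reached the limit at each age. Greb1, an estrogen-regulated coregulator that did not, stood at 0.171 against 0.0379 and at 0.148 against 0.00661. Of 15 channels of pacemaking and rhythm, 12 reached the limit at P5 and 11 at P12. Trpc5 was 2-fold higher at both ages and Cacna1g, a T-type calcium channel, at P12, while Kcnj3, a potassium channel opened by G proteins, was among those 2-fold lower at both.

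Tac2 neurons were not alike in how much Tac2 they held, and at P5 the low-Tac2 cells below the limit shared the Lhx5 and Sox14 transcripts. Low-Pomc neurons of P5 with a Tac2 level of 1 to 5, which the rule left out, numbered 284, and 72.9% of them held both Lhx5 and Sox14. This compares with 17.3% of the 813 with no Tac2 UMI, and with 90%, 86.4%, 87.3% and 80.4% of the Tac2 neurons at 5 to 10, 10 to 20, 20 to 50 and 50 or more. In all, 871 low-Pomc neurons of P5 held both factors, 439 of them Tac2 neurons (50.4%) and 141 without any Tac2 UMI. At P12, 179 did, and 165 of them (92.2%, interval 87.2 to 95.7) were Tac2 neurons. Median UMIs of the P5 cells with both factors were 14589 in and 13367 outside the group. Tac2 levels of 50 or more were reached by 32.7% of Tac2 neurons at P5 and 74.8% at P12.

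Other KNDy genes differed along the Tac2 range. At P5 the Kiss1 level was 0.134, 0.246, 0.286 and 0.748 from the lowest to the highest of these 4 ranges, and Tacr3 was 0.263, 0.328, 0.312 and 0.872. Nr5a2 was lowest in the highest range, at 1.08, 1.10, 0.983 and 0.414, and Sox14 at 2.71, 2.33, 2.18 and 1.62. Lhx5 showed no such order, at 1.91, 1.51, 1.90 and 1.69. At P12 the 3 lower ranges held 10, 12 and 33 cells, and no order is read from them.

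Sex was not in the labels, so cells were called from sex-linked transcripts: female with at least 5 UMIs of Xist, which silences an X chromosome in female cells, and none of 4 Y-linked genes, and male with at least 2 Y-linked UMIs and at most 2 of Xist. The number of pups of each sex in a pool was not stated, so sex and animal cannot be told apart. At P5, 320 Tac2 neurons were called female and 111 male, with 83 uncalled; at P12 the numbers were 137, 48 and 33. Of the called cells, 74.2% (69.8 to 78.3) were female at P5 and 74.1% (67.1 to 80.2) at P12, against 59.4% (57.4 to 61.3) and 64.5% (61.4 to 67.5) of the other neurons. In microglia the share was 60.9% at P5 and 77.9% at P12, where 583 of 1916 microglia were uncalled. Cells with both Xist and Y-linked UMIs made up 2.33% and 2.75% of the Tac2 neurons. Female and male Tac2 neurons were of similar depth, with median UMIs of 14886 and 15000 at P5 and of 19063 and 19891.5 at P12.

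The Tac2 level of female Tac2 neurons was 61.6 at P5 and that of male ones 20.1, a ratio of 3.06; at P12 the levels were 96.6 and 49.4, a ratio of 1.95. In the other neurons, whose Tac2 was low, the levels were 0.588 and 0.289 at P5, a ratio of 2.04 (1.87 to 2.22), and 0.302 and 0.157 at P12, a ratio of 1.93 (1.62 to 2.30), so the ratio at P12 was about as large outside the Tac2 neurons as in them. Since the rule has a Tac2 limit, the female share of Tac2 neurons depends on it. At P5 the female share of called cells was 54.4% (42.8 to 65.7) at Tac2 levels of 5 to 10, 55.6% (44.7 to 66.0) at 10 to 20, 73.8% (64.2 to 82.0) at 20 to 50 and 94.97% (90.3 to 97.8) at 50 or more. In that last range 151 cells were called female and 8 male. At P12 the share at 50 or more was 82.5% (75.3 to 88.4), from 118 female and 25 male cells. Below the limit at P5, at levels of 1 to 5, it was 47.9% (40.7 to 55.2). It was 63.4% (56.8 to 69.6) above 0 to 1 and 60.6% (56.8 to 64.4) with no Tac2 UMI. At P5, 90 of 284 cells were uncalled at 1 to 5 and 9 of 168 at 50 or more, which the intervals do not cover.

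**Figure D3:**
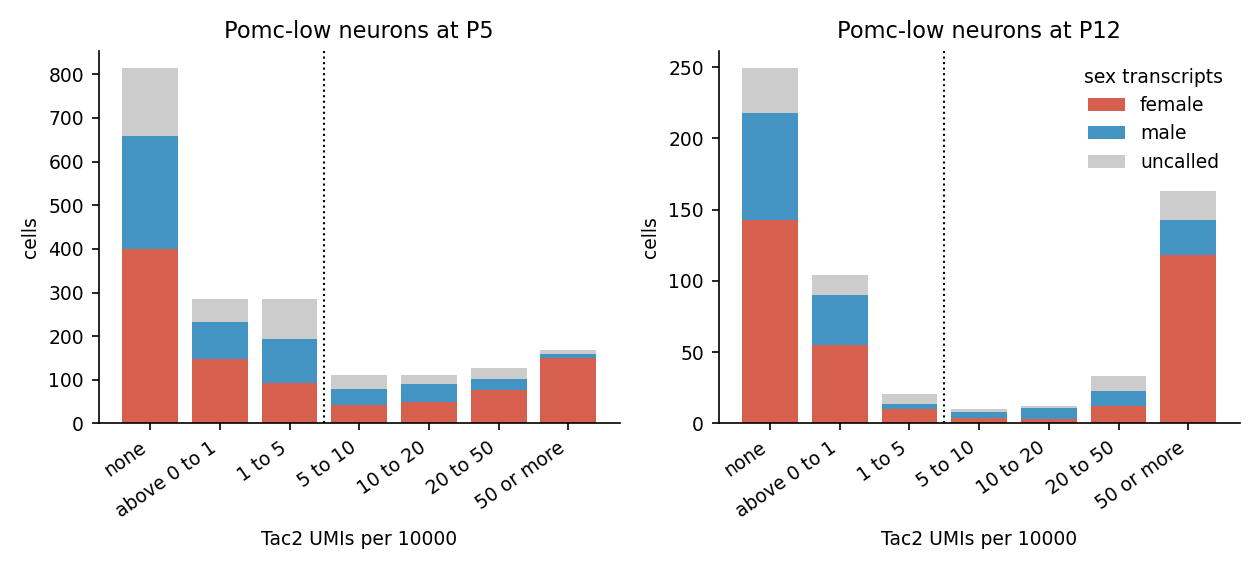
Numbers of low-Pomc neurons at P5 (left) and P12 (right) by Tac2 level in UMIs per 10000, with cells called female, male or neither from sex-linked transcripts stacked; the dotted line is the limit of the rule. At P5 the range of 50 or more holds 151 female and 8 male cells, and at P12 it holds 118 and 25.

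The difference was also present in cells picked by Lhx5 and Sox14, which does not use Tac2. Tac2 neurons were 50.4% of these cells at P5 and 92.2% at P12, so they are not a separate set of cells. Among low-Pomc neurons with both factors, 410 were called female and 256 male at P5, or 61.6% female, near the 59.4% of the other neurons. Their median Tac2 level was 14.8 in female cells (quartiles 1.88 and 70.1) and 3.17 in male cells (0.726 and 11.1), so the ranges overlapped widely. A Tac2 level of at least 5 was reached by 64.4% (59.5 to 69.0) of the female and 39.5% (33.4 to 45.7) of the male cells. At P12, 108 cells were female and 46 male, with median Tac2 levels of 92.4 (66.0 to 119) and 49.6 (17.7 to 67.3).

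Summed over the Tac2 neurons, Kiss1 and Pdyn were also higher in female cells. Kiss1 stood at 0.525 in female and 0.242 in male cells at P5 and at 0.560 and 0.167 at P12, and Pdyn at 1.15 and 0.575 and at 1.79 and 0.564. The ratios of Kiss1 were 2.17 (1.56 to 3.08) and 3.35 (1.99 to 6.03). Within the P5 Tac2 ranges from 5 to 10 upward, Kiss1 was 0.192, 0.191, 0.370 and 0.773 in female cells. In male cells it was 0.0556, 0.382, 0.219 and 0.380. The male value was the larger at 10 to 20, and also below the limit at 1 to 5 (0.0626 in female and 0.189 in male cells). The male values of the 4 ranges rest on 42 Kiss1 UMIs in all, so no direction of Kiss1 is read within a range. Pdyn was 0.874, 0.981, 1.23 and 1.23 in female cells and 0.500, 0.534, 0.656 and 0.837 in male cells, higher in female cells in each of the 4. Esr1 stood at 1.66 and 0.552 at P5, a ratio of 2.999 (2.43 to 3.75), and at 2.88 and 1.39 at P12, a ratio of 2.08 (1.72 to 2.52); in the other neurons its ratio was 1.19 and 0.754. Within the P5 Tac2 ranges from 5 to 10 upward, Esr1 was 2.04, 1.65, 1.54 and 1.62 in female cells and 0.389, 0.641, 0.510 and 0.913 in male cells, higher in female cells in each of the 4. Nr5a2 was 1.73, 1.43, 1.14 and 0.385 in female cells, lower with each range. In male cells it was 0.649, 0.855, 0.874 and 1.14, on 36, 40, 27 and 8 cells. No order is read from the male values. The values of 50 or more rest on 8 male cells. Summed over all ranges, whose shares of the sexes differ, the female over male ratio of Nr5a2 was 1.07 at P5 and 0.939 at P12, and that of Lhx5 was 1.18 and 1.05.

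Across all genes at a level of 1 or more, 11 of 2007 (0.548%) were at least 2-fold higher in female and 9 (0.448%) in male Tac2 neurons at P5, and 26 of 2257 (1.15%) and 18 (0.798%) at P12. Xist, which made the call, is among them. Beside Xist, 5 genes were higher in female cells at both ages (Dgkk, Esr1, Ptprg, Rasgrf1 and Serpine2) and 4 in male cells (Cdh4, Pcdh11x, Pcdh19 and Pik3r1). Cdh4, R-cadherin, was 0.203 in female and 1.67 in male cells at P5 and 0.136 and 1.57 at P12. In the other neurons it was 0.512 and 0.781 at P5 and 0.386 and 0.462 at P12, with ratios of female over male cells of 0.656 and 0.834 there and of 0.121 and 0.0869 in the Tac2 neurons. Of the protocadherins, Pcdh11x was 0.755 and 3.58 at P5 and 1.07 and 4.59 at P12, and Pcdh19 was 1.81 and 6.26 and 1.99 and 6.97. Both lie on the X chromosome, as Dgkk does, and both were higher in male cells, with ratios in other neurons of 0.487 and 0.678 at P5 and 0.847 and 0.840 at P12. Rasgrf1, a guanine nucleotide exchange factor, was 1.03 in female and 0.253 in male Tac2 neurons at P5 and 4.02 and 1.61 at P12, with ratios of 1.13 and 0.934 in the other neurons. Ptprg, a receptor phosphatase, had female over male ratios of 2.73 and 2.22 and Dgkk, a diacylglycerol kinase, of 3.38 and 2.18. In the cells picked by Lhx5 and Sox14, the male level of Cdh4 was 6.997-fold the female level at P5 and 7.35-fold at P12.

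**Figure D4:**
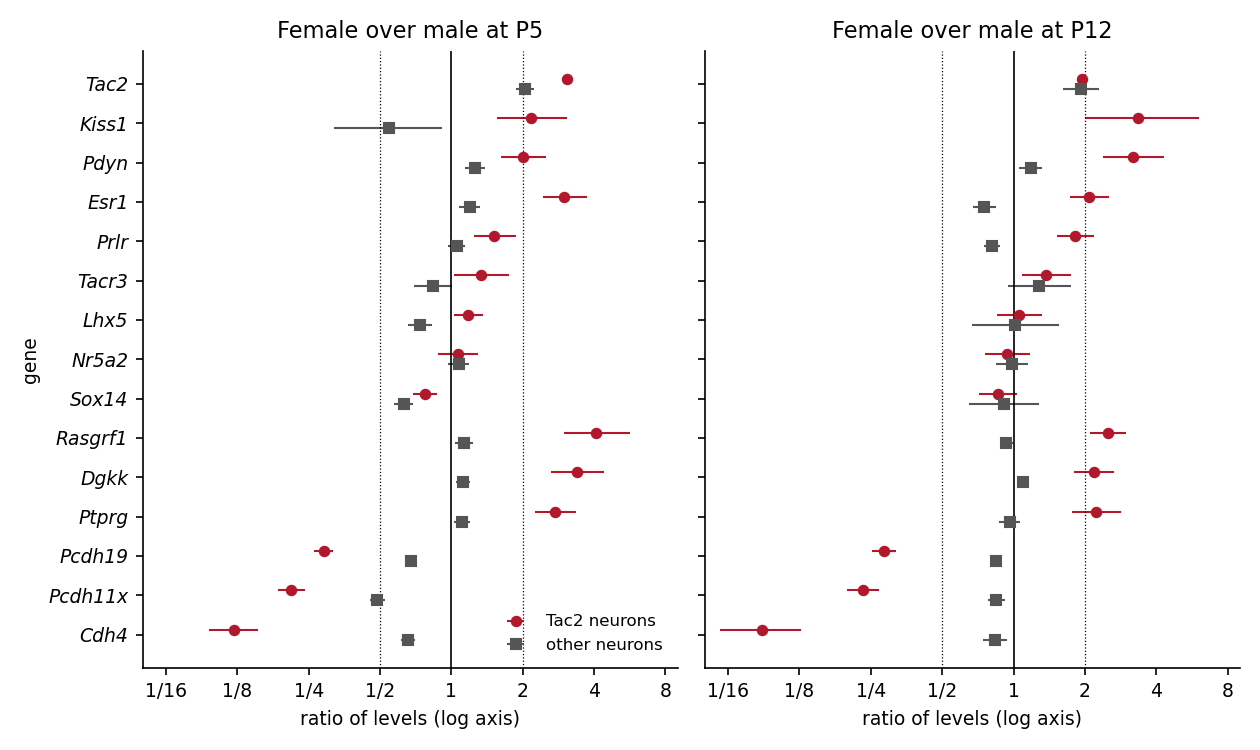
Ratio of the level in female-called over male-called cells (log axis) at P5 and P12 in Tac2 neurons and in other neurons; bars are exact 95% intervals of counting error, dotted lines mark 2-fold, and Kiss1 of other neurons at P12 is left out because male cells held no UMI. Tac2, Kiss1, Pdyn, Esr1 and Rasgrf1 lie to the right in Tac2 neurons, Pcdh19, Pcdh11x and Cdh4 to the left, and Lhx5 and Nr5a2, summed over all Tac2 ranges, near 1.

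Between P5 and P12, 66 of 2196 genes (3.01%) were at least 2-fold higher and 32 (1.46%) at least 2-fold lower in Tac2 neurons, against 58 (2.66%) and 38 (1.74%) of 2183 in the other neurons. With the limit of 0.2, 403 of 7411 (5.44%) were higher and 83 (1.12%) lower in Tac2 neurons. Age and library cannot be told apart. Of the KNDy genes, Prlr was 2.68-fold higher at P12 (2.44 to 2.95) and Tacr3 2.32-fold (2.02 to 2.66); in the other neurons the ratios were 1.999 (1.90 to 2.10) and 0.851 (0.730 to 0.989). Tac2 was 1.72-fold, Esr1 1.84-fold, Pdyn 1.51-fold and Nr5a2 1.41-fold higher, all short of 2-fold. Pgr was 2.05-fold higher at a P12 level of 0.214, and Kiss1 over all Tac2 neurons was 1.02-fold (0.838 to 1.23). The shares of the Tac2 ranges differed between the ages, and within the range of 50 or more, which was compared after the values over all cells were seen, some ratios moved. There Kiss1 was lower at P12, at 0.748 (0.649 to 0.858) and 0.479 (0.405 to 0.562), a ratio of 0.640 (0.515 to 0.794). Nr5a2 was 2.66-fold higher (2.14 to 3.31), Tacr3 1.57-fold (1.34 to 1.85) and Prlr 2.52-fold (2.21 to 2.87), and Sox14 stood at 0.993 (0.872 to 1.13) of its P5 level. Lhx5 and Sox14 were lower at P12, at 0.692 and 0.783 of the P5 level in Tac2 neurons and at 0.174 and 0.143 in the other neurons. Slc17a6 was 2.10-fold higher (1.93 to 2.30) in Tac2 neurons and 1.20-fold (1.15 to 1.24) in the rest. Over all Tac2 neurons, female cells made up 74.2% and 74.1% of the called cells. In the range of 50 or more they made up 94.97% at P5 and 82.5% at P12. In female cells of that range Kiss1 was 0.773 at P5 and 0.600 at P12, and Nr5a2 was 0.385 and 1.05. The part of the sexes in the ratios of the ages was not tested.

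Of the 10 genes most raised at P12, 6 were transcripts abundant in microglia, among them Sparc, C1qa, C1qb, C1qc and Selenop. Sparc stood at 0.132 at P5 and 1.37 at P12 (16.004 and 29.6 in microglia), C1qb at 0.317 and 2.18 (46.4 and 50.05), C1qc at 0.284 and 1.78 (38.5 and 43.4), C1qa at 0.277 and 1.69 (38.8 and 44.4) and Selenop at 0.196 and 1.06 (23.4 and 31.1). Without the Tac2 neurons that held at least 4 microglia markers, the log2 ratios of P12 over P5 were 2.39 for Sparc, 1.47 for C1qb, 1.39 for C1qc, 1.68 for C1qa and 1.75 for Selenop, all still past 2-fold. The other 4 stood higher in Tac2 neurons than in microglia at P12. Eno2, neuron-specific enolase, was 4.45-fold higher, Rasgrf1 4.19-fold, and Impact, a regulator of translation, 4.01-fold. In the other neurons these were 3.40-fold, 4.05-fold and 3.75-fold higher.

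Of the 10 genes most lowered at P12, 6 (Sox11, Dpysl3, Sox4, Dcx, Tuba1a and Tubb2b) were on the list of growing axons and immature neurons. Of the 15 genes of that list, 14 reached a level of 1, and 8 were at least 2-fold lower at P12 in Tac2 neurons and 10 in the other neurons, with median log2 ratios of -1.26 and -1.28 against 0.02 and 0.05 over all genes. Sox11, an immaturity factor, fell from 3.03 to 0.917 and Dcx, doublecortin, from 1.495 to 0.488. The Sox11 level was 2.09-fold (2.002 to 2.19) that of other neurons at P5 and 2.08-fold (1.85 to 2.33) at P12. Tuba1a, Tubb2b and Tubb5, tubulins of the growing axon, went from 53.6 to 18.3, from 34.7 to 12.6 and from 24.4 to 9.68. Vim, vimentin, went from 1.41 to 0.508 and Fdps, an enzyme of the sterol pathway, from 2.38 to 0.887. Dpysl3, a collapsin response mediator, went from 5.22 to 1.60, Sox4 from 2.80 to 0.887 and Cxadr, a cell adhesion protein, from 1.30 to 0.463. Of 20 genes of the mature synapse and excitability, 10 reached a level of 1; none of them was 2-fold different, and their median log2 ratio was 0.57 in Tac2 neurons and 0.42 in the other neurons.

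**Figure D5:**
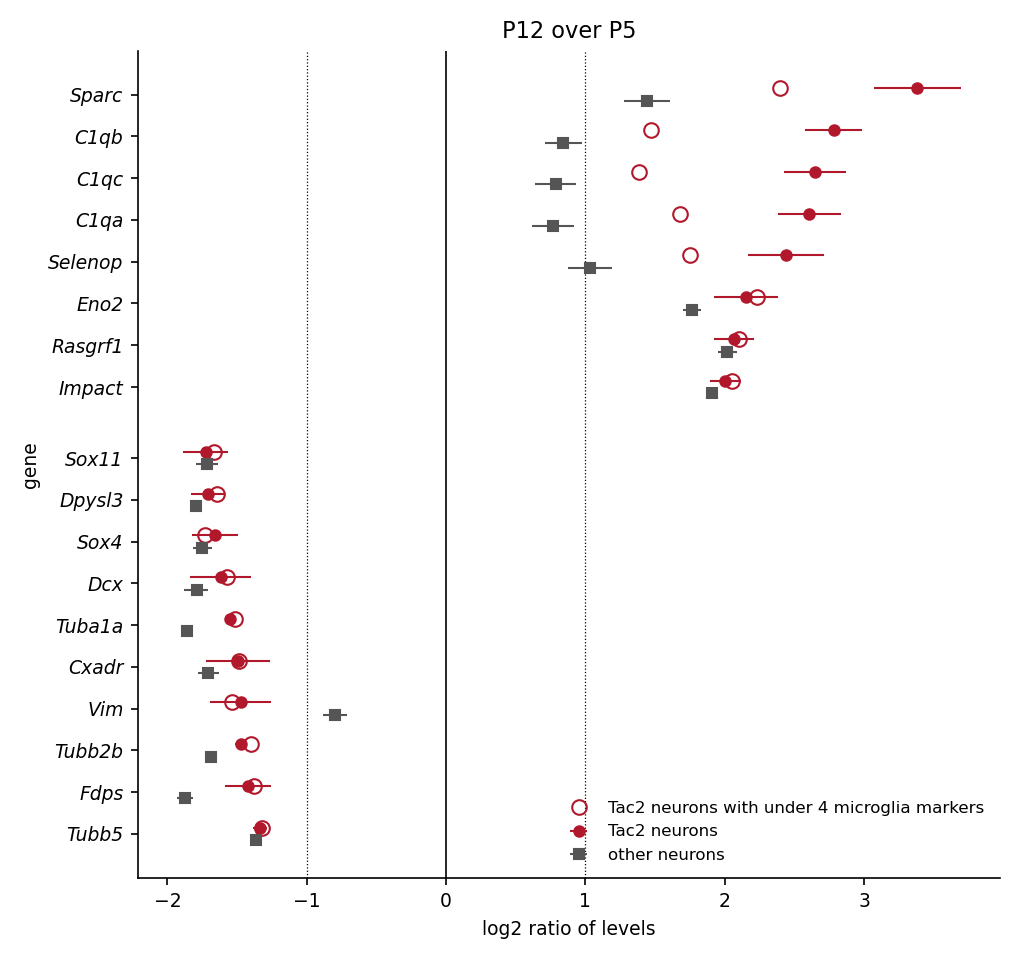
Log2 ratio of P12 over P5 levels for the named genes most raised (top) and most lowered (bottom) in Tac2 neurons, with the other neurons beside them; bars are exact 95% intervals of counting error, and open circles leave out Tac2 neurons with at least 4 microglia markers. For Sparc, C1qa, C1qb, C1qc and Selenop the open circles fall to between 1.39 and 2.39, while for Sox11 and Dcx they stay near the filled ones, at -1.66 and -1.57.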

How the data were processed

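Cells of Pomc-DsRed mice, papain-dissociated and sorted for red fluorescence, were made into droplet 3′ libraries, of which P5 and P12 are described. The authors deposited whole-number UMI counts per gene and cell. Their processing notes name Cell Ranger (2.2.0 and 3.0.0), Seurat 3.0 and genome mm10; which version made which library was not given in the sources used here. The authors had filtered cells on UMIs, genes, mitochondrial share and Pomc; the files held 81593741 UMIs at P5 and 61869340 at P12.

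Counts were used as deposited (Python 3.11.15, numpy 2.4.6, pandas 2.3.3, scipy 1.17.1). UMIs were summed over the cells of a group, divided by the group's total and multiplied by 10000. Levels have exact Poisson, shares exact Clopper-Pearson and ratios exact conditional 95% intervals; these cover counting error only, and with 1 library per age no test was made. A group under 3 UMIs was set to 3 in ratios. Ratios were checked on simulated data. Genes were called past 2-fold at a level of at least 1 on the higher side. Named genes were those of the lists, the 10 genes of largest ratio each way at both ages (ranked by the smaller of the 2 log2 ratios) or between the ages in Tac2 neurons, and the 3 of largest ratio each way between the sexes. Doublets were scored with Scrublet in scanpy 1.11.5, which called 129 and 72 cells, 8 and 8 of them Tac2 neurons; all were kept, and leaving out the 5% of highest score was an alternative. Gene positions are from GENCODE on GRCm38 and promoter stretches from RefSeq (GRCm38.p6). The members and lists were chosen with earlier results of these data known. Some genes that the lists and rules hold are counted but not reported here.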

Additional observations from a re-analysis of the deposited data

Results flagged for a closer look

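The rule for Tac2 neurons was also applied to the embryonic libraries, which enter no comparison above. It found 0 cells at E11.5 and at E13.5, 33 at E15.5 and 57 at E17.5, a signal outside the postnatal comparison. In these cells the Tac2 level was 14.3 and 13.7, Sox14 stood at 4.83 and 3.60 and Lhx5 at 1.74 and 1.31. Prlr had 0 UMIs at E15.5 and 5 at E17.5. The embryonic libraries were made with another version of the chemistry, and their levels are not compared with the postnatal ones. In them the transcripts of the kisspeptin locus were counted mostly on Gm28040 (26 and 61 UMIs) and less on Kiss1 (2 and 9). Their counts cover 27998 gene names, against 31054 in the postnatal libraries. The part of this in how the locus was counted was not tested.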

How the results depend on the processing

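The direction of the microglia markers called higher at P12 depends on the cells set aside from the other neurons. With no cells set aside, 909 cells return to the other neurons at P12, 775 of them with at least 4 microglia markers. At P5 the share of neurons was 11.7% with a Tac2 limit of 10, 20.0% with a limit of 2, 18.2% in female cells alone and 10.1% in male cells alone. At P12 it was 9.78% when no cells were set aside, 14.4% without Tac2 neurons holding 4 microglia markers and 12.3% in male cells alone. With a level of at least 0.2, 149 genes were higher and 190 lower than in other neurons at P5, 288 and 235 at P12, and 403 higher and 83 lower at P12 than at P5. With no cells set aside, 124 were lower than in other neurons at P12. At P5, stricter calls of sex gave 19 genes higher in female cells, and a Tac2 limit of 20 gave 20 higher in female and 16 in male cells. The alternatives without marked cells, within 1 sex, with a Tac2 limit of 20 and all those for the female and male comparison were chosen after seeing the data. Of 1184 values for single genes under all alternatives, 916 stayed within the counting interval and 268 did not. No paired analysis was possible because each age had 1 library. No replicate could be left out. Depth limits Kiss1, with at most 5 UMIs per cell, and the P12 ranges of Tac2 below 50.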

Other observations

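Further genes past 2-fold between female and male Tac2 neurons at P5, beside those named above, were Serpini1, Vgf, Nefl and Lrfn5, higher in female cells, and Hs6st2, Arhgap36, Ramp3 and Sox1, higher in male cells. None of these 8 was past 2-fold at P12. There the genes higher in female cells included Pcsk1, the peptide gene Gal, the neurotrophin gene Bdnf and Sox3, and those higher in male cells included Calb2, Nptx2, Brs3 and Ecel1. These genes were chosen for naming after their values were seen.

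An entry of the count table named RFP held 0 UMIs in the Tac2 neurons at P5 and 1 at P12, and 25 and 10 in the other neurons. These numbers are too small for a comparison.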
